A study of Mus musculus with 6 samples.

Results

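The regions described here are ATRX peaks on the centromere side of the mouse chromosomes, in the first 10 Mb of assembled sequence. They were taken from 2 ATRX chromatin immunoprecipitation sequencing (ChIP-seq) peak lists by position alone: a peak on chromosomes 1 to 19 or X was included if its midpoint lay at least 3 Mb and less than 13 Mb from the start of the mm9 chromosome. The list from mouse embryonic fibroblasts (MEFs) held 189 such peaks of 2051 on these 20 chromosomes. The foetal liver list held 59 of 976. Chromosome Y carried 3 further MEF peaks and 7 further foetal liver peaks, which were not considered.

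The MEFs were wild-type C57BL/6 fibroblasts in culture; their embryonic age is not stated. The foetal liver cells were wild-type C57BL/6 erythroid cells of embryos at stage E14.5 (days of gestation), enriched with magnetic beads for Ter119, a surface protein of the red cell lineage. Both were fixed with EGS and formaldehyde and precipitated with the H300 antibody to ATRX. Each is 1 library, so the difference between the cell types has no replicate check and no p-value is given. How many animals contributed is not stated, and with peak positions alone neither cell type could be checked against marker genes. The other 4 samples of the series (MEF inputs, the W8 MEFs and Suv39h1/2 knockout MEFs) were not analysed here.

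ATRX is a SWI/SNF-family chromatin remodeller that works with the chaperone DAXX to place the histone variant H3.3 in repetitive chromatin. It is known at telomeres and at pericentromeric heterochromatin, where Suv39h enzymes methylate histone H3 on lysine 9 and ATRX binds that mark through its ADD domain. Mouse chromosomes carry the centromere at one end. Its satellite arrays are mostly not assembled, and mm9 has a placeholder of 3 Mb in their place. The window therefore starts at the first assembled sequence after the placeholder. The placeholder has no sequence to which reads could map, so the finding of 0 peaks of either list inside it was fixed in advance. Whether satellite sequence lies under peaks of the window was not examined. The lists give only a chromosome, a start and an end, so the strength of a peak and the depth behind it are unknown. Genes and repeats at the peaks are not given, as no mm9 annotation or sequence was used here.

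The MEF ratio to length was above 1 in the window and the foetal liver ratio below 1, both with intervals that end close to 1. The window makes up 7.755% of the sequence of the 20 chromosomes after the placeholders. It held 9.215% of the MEF peaks (exact 95% interval 7.998 to 10.55%), 1.19 times the length share (1.03 to 1.36). It held 6.045% of the foetal liver peaks (4.633 to 7.729%), 0.780 times the length share (0.598 to 0.997). By length alone 159.1 MEF and 75.7 foetal liver peaks would lie there. The density was 0.945 MEF peaks per Mb in the window and 0.783 elsewhere on the same chromosomes. For foetal liver it was 0.295 per Mb in the window and 0.386 elsewhere.

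These intervals (Clopper-Pearson) cover only the counting of peaks, and they treat neighbouring peaks as independent. Neither departure held under every setting. The MEF interval included 1 without chromosome 9, 12, 17, 19 or X, the lowest ratio being 1.12 (0.958 to 1.29) without chromosome 17. It also did so without the first 100 kb (1.04, 0.893 to 1.21), with peaks within 10 kb counted once (1.08, 0.925 to 1.25) or within 100 kb (1.14, 0.963 to 1.34), and among the wider 50% of peaks (1.19, 0.974 to 1.44). In the first 20 Mb the MEF ratio was 0.880 (0.786 to 0.981), below the length share like that of foetal liver. The foetal liver interval included 1 on leaving out any of 15 of the 20 chromosomes, the highest ratio being 0.830 (0.636 to 1.06) without chromosome 9. With foetal liver peaks within 10 kb counted once the ratio was 0.812 (0.617 to 1.05), and within 100 kb 0.808 (0.592 to 1.07). Without chromosome 19 it was 0.550 (0.394 to 0.747). In the first 5 Mb the foetal liver ratio was 0.951 (0.670 to 1.31), and the MEF ratio 1.58 (1.33 to 1.88).

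**Figure D1:**
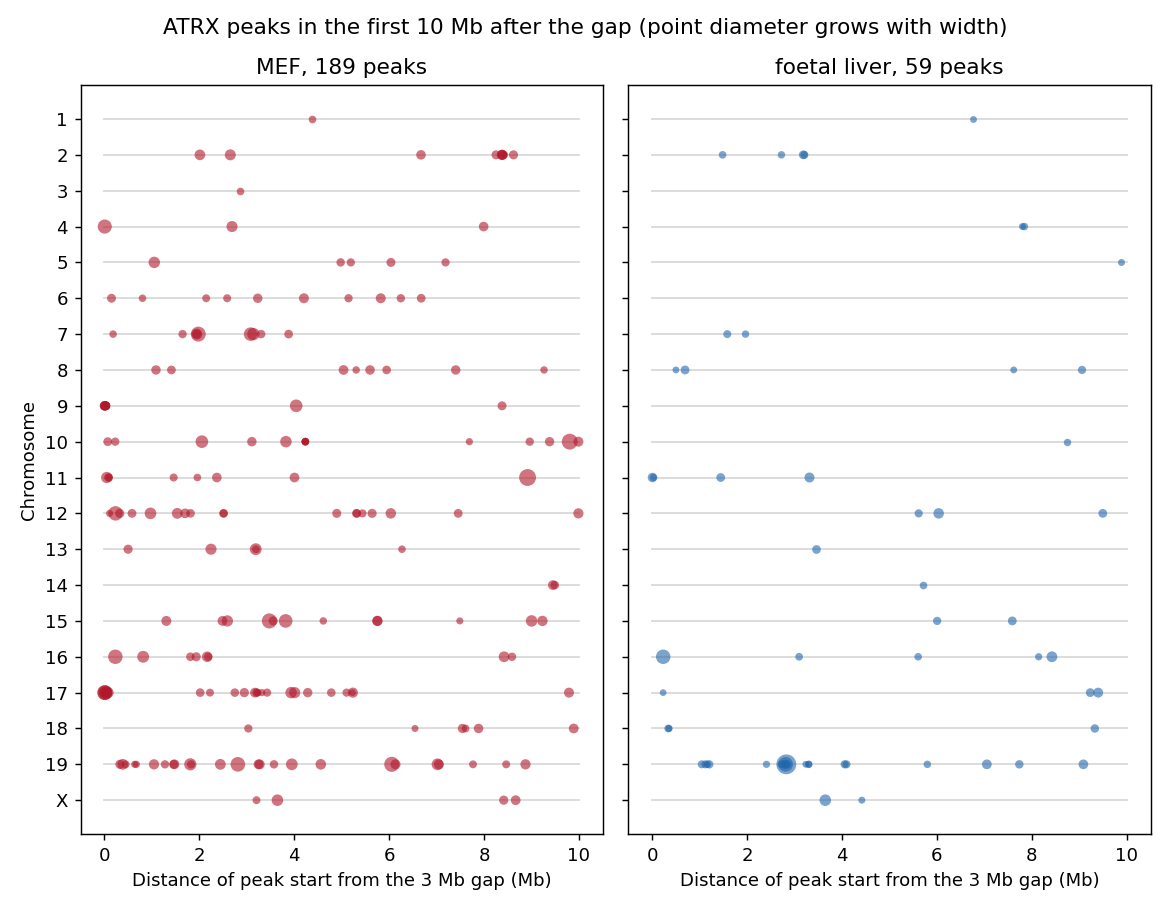
Each point is an ATRX peak, placed by its distance from the 3 Mb gap (x axis, Mb) on its chromosome (y axis), with the 189 MEF peaks on the left and the 59 foetal liver peaks on the right; larger points are wider peaks. MEF peaks gather at distance 0 on chromosomes 9 and 17, and 20 of the 59 foetal liver peaks lie on chromosome 19.

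The MEF peaks were most crowded against the gap itself. The first 100 kb of the 20 chromosomes, 2 Mb in all, held 27 MEF peaks, or 13.5 per Mb. From 0.1 to 1 Mb there were 17 peaks, or 0.944 per Mb. The high count of the first 1 Mb (44 peaks, 23.3% of the MEF peaks of the window, interval 17.5 to 29.96%) thus lay mostly in its first 100 kb. Further in, the density was 1.12 per Mb from 1 to 4 Mb and 0.650 per Mb from 4 to 10 Mb. The last value is below the 0.783 per Mb of the rest of the chromosomes. With peaks up to 10 kb apart counted once, the first 100 kb still held 8 MEF stretches, or 4 per Mb, against 0.795 per Mb for the whole window.

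In foetal liver the first 100 kb held only 2 peaks, both on chromosome 11. That is 1 per Mb, above the 0.386 per Mb of the rest of the chromosomes, but with so few peaks the density is uncertain (3.39% of the 59, interval 0.413 to 11.7%). From 0.1 to 1 Mb there were 6, or 0.333 per Mb. The density was 0.417 per Mb from 1 to 4 Mb and 0.217 per Mb from 4 to 10 Mb. The first 1 Mb held 8 of the 59 peaks (13.6%, interval 6.04 to 24.98%), the same number as the second and the third. In both lists the 3 Mb that followed the first were denser than the 6 Mb after them, a split at 4 Mb that was not planned. In foetal liver 14 of the 25 peaks from 1 to 4 Mb lay on chromosome 19, between positions 4.0 and 6.4 Mb. These densities were not computed without chromosome 19.

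**Figure D2:**
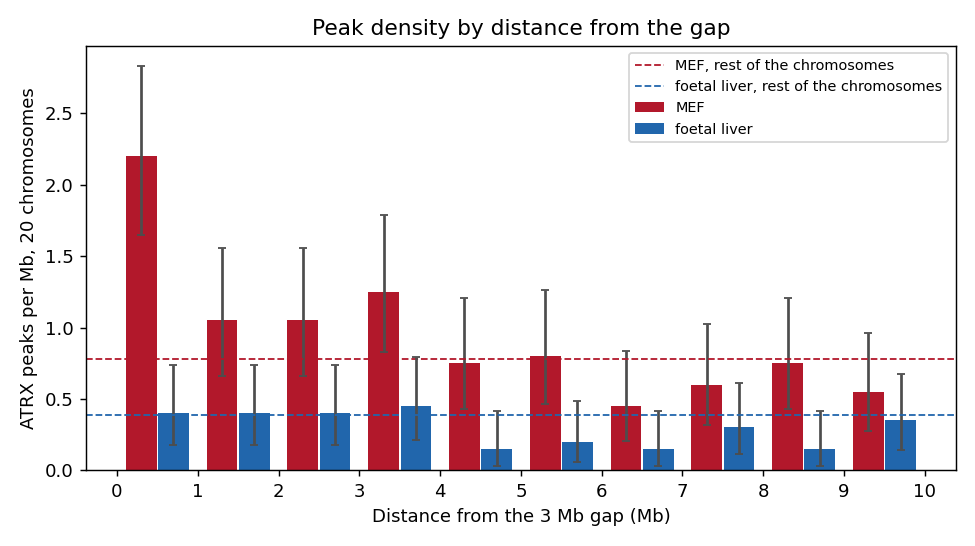
Bars give ATRX peaks per Mb over 20 chromosomes (y axis) in 1 Mb steps from the 3 Mb gap (x axis), MEF red and foetal liver blue, with exact 95% counting intervals; dashed lines are the densities of the rest of the chromosomes. The first MEF bar, at 2.2 per Mb, stands above all others, while the foetal liver bars lie between 0.15 and 0.45 per Mb.

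The next 10 Mb of the chromosomes, 10 to 20 Mb from the gap, held fewer MEF peaks (91, or 0.455 per Mb, 0.572 times the length share). Foetal liver was similar in the window and in the next 10 Mb (59 and 55 peaks). At the opposite, telomere-side end the last 10 Mb held 372 MEF peaks, 2.34 times the length share (2.13 to 2.56). They held 122 foetal liver peaks, 1.61 times the length share (1.35 to 1.90). The centromere side was therefore the less occupied of the 2 chromosome ends in both lists at this window size.

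The 27 MEF peaks nearest the gap came from 5 chromosomes, and 22 of them from chromosomes 9 and 17. The chromosome 9 run consisted of 15 peaks from chr9:3000002-3038625, 366 to 1328 bp wide. Their median was 658 bp, beside 1036 bp for the MEF peaks of the window. They were separated by 665 to 5909 bp (median 1603 bp) and covered 28.2% of the 38.6 kb. The opening peak, chr9:3000002-3001067, starts at the edge of the assembled sequence. Beyond this run chromosome 9 had only 2 MEF peaks in the window, chr9:7042085-7045857 (3773 bp) and chr9:11380022-11380980 (959 bp).

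The chromosome 17 run looked different. It consisted of 6 peaks from chr17:3006569-3037960 that were 841 to 7333 bp wide, with a median of 3396 bp, and covered 77.4% of 31.4 kb. Its widest peaks, chr17:3006569-3013674 (7106 bp) and chr17:3013807-3021139 (7333 bp), were separated by 132 bp, and the next, chr17:3021317-3023911, began 177 bp further on. A gap of 643 bp led to the fourth peak and one of 5993 bp to the fifth, which was 162 bp from the sixth. The run thus formed 2 blocks of closely set peaks about as far apart as the widest gap of the chromosome 9 run. A seventh peak lay at chr17:3081414-3083415 (2002 bp). Neither run contained a foetal liver peak, and over the whole MEF list only 2.97% of peaks overlapped one. The nearest foetal liver peak to the chromosome 17 peaks was chr17:3230405-3230705 (301 bp), 147 kb from the seventh, and chromosome 9 had 0 foetal liver peaks in the window.

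**Figure D3:**
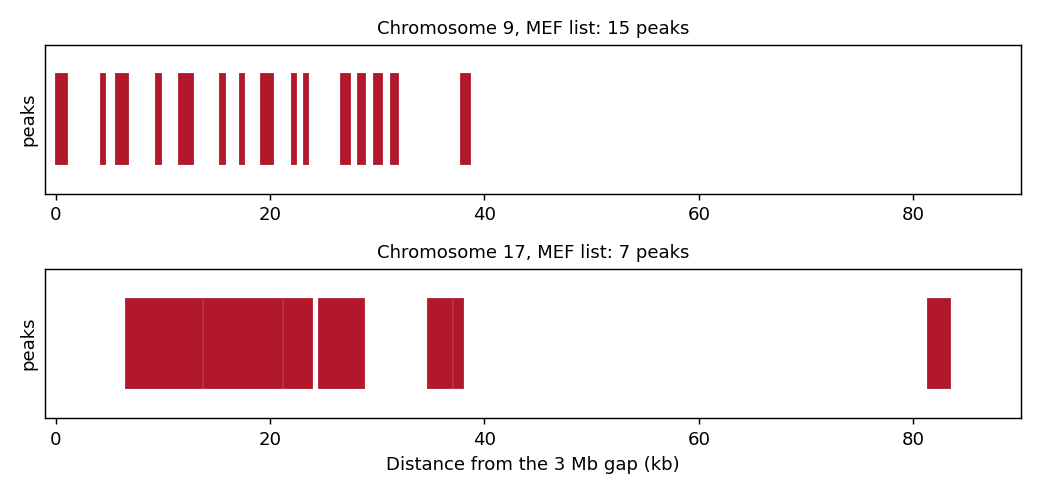
MEF ATRX peaks in the first 100 kb after the gap on chromosome 9 (top, 15 peaks) and chromosome 17 (bottom, 7 peaks), drawn to scale by distance from the gap in kb; bar height has no meaning. The chromosome 9 peaks are 366 to 1328 bp wide and spaced. The first 6 peaks on chromosome 17 form 2 blocks 5993 bp apart, in which gaps of 132, 177 and 162 bp are too small to see, and the seventh lies 43.45 kb further on.

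The other peaks of the first 100 kb were a wide MEF peak on chromosome 4 (chr4:3008198-3014034, 5837 bp), one on chromosome 10 (chr10:3071550-3072441, 892 bp) and several on chromosome 11. On chromosome 11 both lists had peaks beside the gap, at different places. The foetal liver peaks were chr11:3004832-3006003 (1172 bp) and chr11:3025222-3025674 (453 bp). The MEF peaks followed at chr11:3049438-3051823 (2386 bp), chr11:3085472-3086300 (829 bp) and chr11:3099452-3099986 (535 bp). The closest pair across the lists was 23.8 kb apart. Chromosome 11 was the only chromosome with peaks of both lists within 100 kb of the gap.

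Whether the authors had taken artefact-prone repeats out of their lists is not stated, and the input libraries were not analysed here. The part of such repeats in the 2 runs was not tested.

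Chromosomes differed widely. All 20 had a MEF peak in the window, and 17 had a foetal liver peak; chromosomes 3, 6 and 9 had none. Chromosomes 19, 17 and 12 together carried 35.4% of the MEF peaks (25, 24 and 18). The window was denser than the rest of its own chromosome on 9 chromosomes in the MEF list and on 5 in the foetal liver list. It was denser in both on chromosomes 2, 16, 19 and X, and less dense in both on 10 chromosomes. For most chromosomes the interval of the share in the window included the length share. In MEFs it lay above on 3 chromosomes and below on 0, and in foetal liver above on 1 and below on 2. Chromosome 1 was at the low end, with 1 peak of each list, chr1:7384705-7385207 (503 bp) in MEFs and chr1:9766526-9766844 (319 bp) in foetal liver. On chromosome 14 the first MEF peak came only 9450 kb from the gap.

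**Figure D4:**
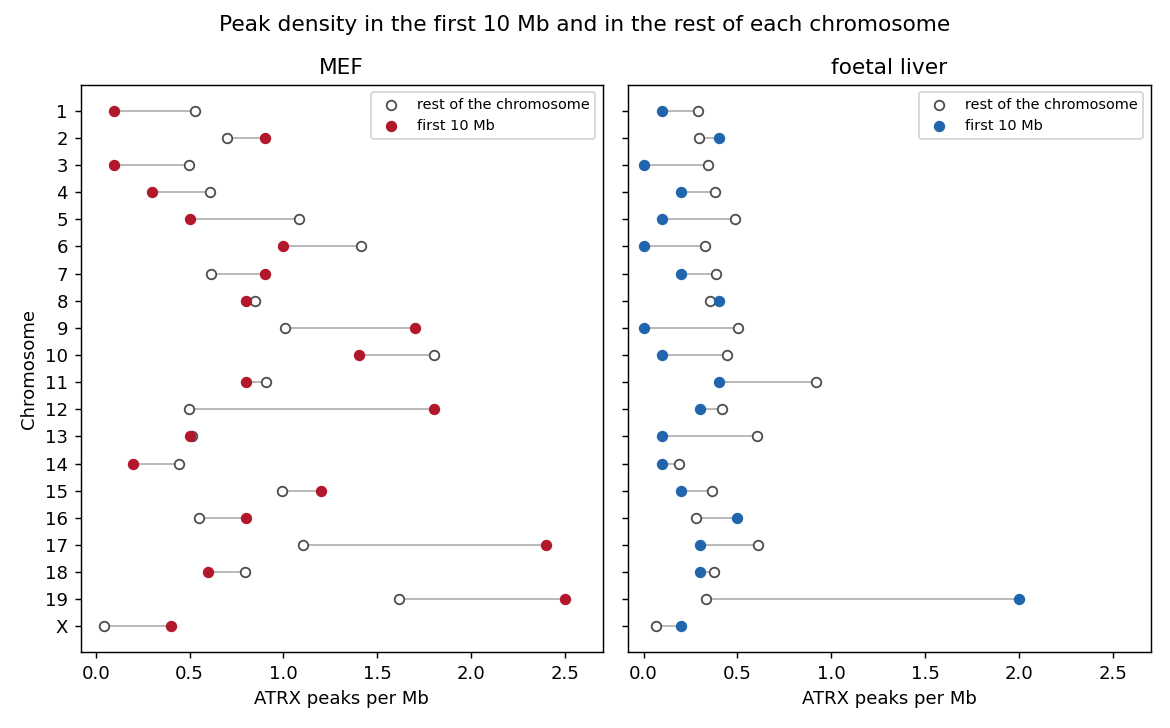
ATRX peaks per Mb (x axis) in the first 10 Mb after the gap (filled) and in the rest of each chromosome (open), by chromosome (y axis), MEF left and foetal liver right. Filled points lie far right of the open ones for chromosomes 12 and 17 in MEFs, at 1.8 and 2.4 per Mb, and for chromosome 19 in foetal liver, at 2 per Mb.

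On chromosome 12 the window held 18 of 72 MEF peaks, 25% (interval 15.5 to 36.6%) where length would give 8.46%. That is 1.8 per Mb against 0.499 in the rest of the chromosome. The peaks were scattered rather than packed: 11 lay in the first 5 Mb and 7 in the last 5 Mb of the window, with widths from 381 to 6474 bp. The widest was chr12:3234603-3241076. Foetal liver had 3 peaks there, 0.3 per Mb against 0.416.

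On chromosome 17 the window held 24 of 115 MEF peaks, 20.9% (13.9 to 29.4%) where length would give 10.8%. Besides the 7 at the gap there were 17 more. Of these, 16 lay between 5.0 and 8.3 Mb, a stretch chosen after its values were seen, with 0 foetal liver peaks; they were 317 to 2534 bp wide. Foetal liver had 3 peaks in the chromosome 17 window, 0.3 per Mb against 0.608 in the rest. On chromosome X, where peaks were rare, 4 of 11 MEF peaks lay in the window (36.4%, 10.9 to 69.2%, where length would give 6.11%). Foetal liver had 2 of 12 there (16.7%, 2.09 to 48.4%).

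Chromosome 19 dominated the foetal liver set. Its window held 20 of 36 foetal liver peaks, 55.6% (38.1 to 72.1%) where length would give 17.1%. The density was 2 per Mb in the window and 0.331 in the rest. In MEFs it held 25 of 103 peaks, 24.3% (16.4 to 33.7%), at 2.5 per Mb and 1.61 in the rest. The densest 1 Mb of the foetal liver set, chr19:5407197-6300896, had 10 foetal liver and 4 MEF peaks. Its centre was a cluster of wide peaks. The widest foetal liver peak of all, chr19:5825903-5848706 (22804 bp), lay between the shared peak chr19:5813182-5819908 (6727 bp) and a narrow one, chr19:5850028-5850647 (620 bp). These 3 covered 80.5% of 37.5 kb. Immediately before them came chr19:5798580-5799101 (522 bp) and chr19:5800793-5801903 (1111 bp). Between 5798580 and 5850647 MEFs had 1 peak, the shared one of 6727 bp.

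The lists also came close without touching on chromosome 19. Such pairs were no more frequent in the window than in the whole lists. A peak of the other list within 10 kb, not overlapping, was found for 3 of 59 foetal liver peaks (5.1%), beside 5.74% of all. For MEFs it was 2 of 189 (1.06%), beside 2.63%. The foetal liver peak chr19:4044397-4045004 (608 bp) ended 0.58 kb before the MEF peak chr19:4045585-4047214 (1630 bp). Similarly, chr19:10052485-10053799 (1315 bp) of foetal liver followed chr19:10048635-10050070 (1436 bp) of MEFs at 2.41 kb. On this chromosome 15 of 20 foetal liver peaks of the window (75%, 50.9 to 91.3%) had a MEF peak within 100 kb. On the other chromosomes it was 12 of 39 (30.8%, 17.02 to 47.6%). Over all foetal liver peaks of the 20 chromosomes it was 33.2%. MEF peaks themselves were dense on chromosome 19, and the part of that density in the proximity was not tested.

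Peaks common to both lists were few. An overlap of at least 1 bp was found for 5 MEF peaks of 189 (2.65%, 0.864 to 6.07%), beside 2.97% of all MEF peaks on the 20 chromosomes. The same 5 regions made up 8.47% of the 59 foetal liver peaks (2.81 to 18.7%), beside 6.15% of all foetal liver peaks. Both shares are near the values of the whole lists. All 5 have the same start and end in each list, so their widths are not 2 separate measurements. On the 20 chromosomes the same was true of all 60 foetal liver peaks in both lists and of 60 of 61 such MEF peaks. How the lists were built is not stated, and its part in these overlaps was not tested. They are chr19:5813182-5819908 (6727 bp), chr16:3231612-3238062 (6451 bp), chrX:6647446-6650075 (2630 bp), chr16:11422862-11424850 (1989 bp) and chr12:9035998-9037778 (1781 bp). In foetal liver they ranked second to sixth in width among the 59. In MEFs they ranked 8, 10, 24, 41 and 46 of 189. One of them, the 6451 bp region of chromosome 16, lay 231.6 kb from the gap, and the others 2813 to 8423 kb from it.

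Close neighbours were common among the MEF peaks of the window, through the runs at the gap. Another MEF peak lay within 10 kb of 40 of the 189 (21.2%, 15.6 to 27.7%), beside 12.8% of all MEF peaks. Without chromosome 9 it was 25 of 172 (14.53%, 9.63 to 20.7%), and without the first 100 kb 19 of 162 (11.7%, 7.21 to 17.7%). A gap under 200 bp bordered 11 of the 189, beside 54 of 2051. Runs of 3 or more MEF peaks with gaps of at most 10 kb numbered 4. Besides those of chromosomes 9 and 17, they were 4 narrow peaks in 4.57 kb of chromosome 10 (chr10:7232704-7237278, 317 to 540 bp wide) and 3 peaks in 8.13 kb of chromosome 2 (chr2:11378935-11387065, 1310 to 1688 bp wide).

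In foetal liver the share with a neighbour within 10 kb was 7 of 59 (11.9%, 4.91 to 22.9%), beside 18.5% of all foetal liver peaks. All 7 were on chromosome 19, and the 39 peaks of the other chromosomes had 0. The single foetal liver run was the wide cluster of chromosome 19 described above. MEF peaks of chromosome 19, at 25 more numerous there, had 0 neighbours of their own within 10 kb. At this distance the close neighbours of the 2 lists thus lay on different chromosomes of the window. The closest MEF peaks of chromosome 19 there were 13.9 kb apart, so a wider cut-off would count them.

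Median widths in the window were close to those of each whole list. MEF peaks of the window had a median of 1036 bp (exact interval 892 to 1174 bp), beside 1021 bp for all MEF peaks. The middle of the distribution, from the 25th to the 75th percentile, ran from 685 to 1688 bp. In foetal liver the median was 616 bp (495 to 724 bp), beside 674.5 bp (649 to 709 bp) for all, with percentiles of 450.5 and 878 bp. The MEF interval lay above the foetal liver interval in the window. By distance from the gap, MEF medians were 887 bp in the first 100 kb (574 to 2002 bp, 27 peaks), 937 bp from 0.1 to 1 Mb (472 to 1971 bp, 17 peaks) and 1075 bp beyond (959 to 1306 bp, 145 peaks). These intervals overlap, and the first joins the mostly narrower chromosome 9 peaks with the mostly wider chromosome 17 peaks.

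**Figure D5:**
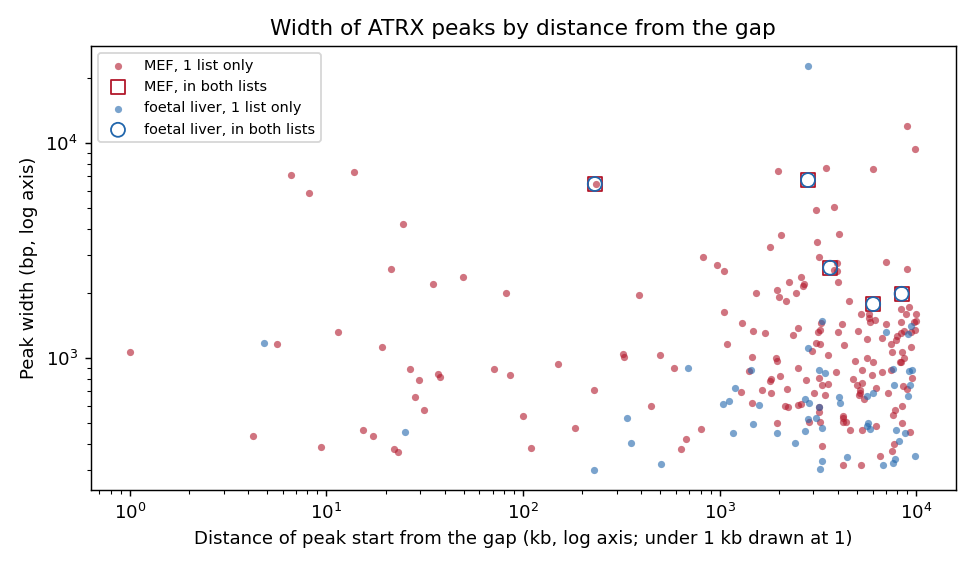
Width of each peak (y axis, bp, log axis) by its distance from the gap (x axis, kb, log axis), MEF red and foetal liver blue; squares and rings mark the 5 regions in both lists. The widest point, at 22804 bp, is the foetal liver peak of chromosome 19, and the MEF points left of 100 kb span 366 to 7333 bp.

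Wide peaks of at least 2 kb numbered 40 in MEFs (21.2%, beside 18.5% of the whole list) and 4 in foetal liver (6.78%, beside 4.61%). Over 5 kb there were 12 of 189 in MEFs, beside 62 of 2051 in the whole list. In foetal liver it was 3 of 59, beside 14 of 976. Both shares were higher in the window, on few peaks. Apart from the 22804 bp peak of chromosome 19, the 4 wide foetal liver peaks were shared regions with the same boundaries in both lists. The widest MEF peaks of the window were far from the gap, chr11:11918390-11930357 (11968 bp) and chr10:12805934-12815343 (9410 bp). They were followed by chr15:6476654-6484275 (7622 bp), chr19:9056142-9063696 (7555 bp), chr7:4978858-4986265 (7408 bp), the pair at the gap on chromosome 17, the shared peak of chromosome 19, chr12:3234603-3241076 (6474 bp) and the shared peak at the start of chromosome 16. Of these 10, 2 were in both lists, beside 61 of all 2051 MEF peaks. None of the other 8 overlapped a foetal liver peak; the nearest approach was 11.99 kb, from the chromosome 7 peak to chr7:4966422-4966869 (448 bp). In foetal liver the widest after the large chromosome 19 peak and the 5 shared regions was chr11:6313893-6315377 (1485 bp). It was followed by chr17:12397657-12399065 (1409 bp) and the chromosome 19 peaks chr19:10052485-10053799 (1315 bp) and chr19:12085568-12086862 (1295 bp). In covered length the window held 305.1 kb of MEF peaks, 10.2% of the list, and 76.4 kb of foetal liver peaks, 8.29%. The single 22804 bp peak is part of the latter.

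At the far bound of the window, the last MEF peak inside it was chr10:12989402-12990886 (1485 bp), and the first outside it chr5:13089881-13091136 (1256 bp). The last foetal liver peak inside was chr5:12877631-12877981 (351 bp), and the first outside was a 1573 bp peak on chromosome 18.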

How the data were processed

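The authors deposited 1 peak list for each of 2 ATRX ChIP-seq libraries, C57BL/6 MEF and C57BL/6 foetal liver. Each holds 3 columns (chromosome, start, end), with no other deposited measure. The submitters' processing notes name Bowtie 0.12.3 and the build mm9. How peaks were called, at which threshold and against which control, and what was filtered, is not given in the sources used. No peak ends past its mm9 chromosome length (GenomeInfoDb 1.38.1). Starts are printed counted from 1, taking the files as BED.

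Counts, shares with Clopper-Pearson 95% intervals, and medians with exact order-statistic intervals were computed in Python 3.11.15 (numpy 2.4.6, pandas 2.3.3, scipy 1.17.1). The functions were tested on planted lists. Planned descriptions of sequence and annotation were not run, since no mm9 genome was used here. Peaks are not replicates, so no test was made between the lists.

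Named regions are the 10 widest, those nearest the gap (within 100 kb), those in both lists, runs, the densest 1 Mb and those beside the bound. No position on chromosome 18 is printed. The members and lists were chosen with earlier results of these data known.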

Additional observations from a re-analysis of the deposited data

Results flagged for a closer look

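The 2 lists lay on opposite sides of the length share in several places. Each list is 1 library and the differences were not tested. The share of peaks in the first 10 Mb was 1.188 times the length share in MEFs and 0.7795 times in foetal liver. The intervals of both included 1 with peaks within 10 kb counted once (MEF 1.08, 0.925 to 1.25, and foetal liver 0.812, 0.617 to 1.05), and that of MEFs also without the first 100 kb (1.04, 0.893 to 1.21). On 6 chromosomes the density of the window over that of the rest of the chromosome lay on opposite sides of 1. MEFs were higher on chromosome 12 (3.61 in MEFs, 0.722 in foetal liver), chromosome 17 (2.17 and 0.494), chromosome 9 (1.69, and 0 since foetal liver had 0 peaks there), chromosome 7 (1.46 and 0.517) and chromosome 15 (1.21 and 0.549). Foetal liver was higher on chromosome 8 (0.9405 in MEFs, 1.13 in foetal liver). Apart from chromosome 9, each of the foetal liver values rests on 2 to 4 peaks in the window. The MEF value of chromosome 9 rests on the run at the gap, with 15 of its 17 peaks and 2 beyond it. Its MEF share of 13.2% (7.87 to 20.3%) has an interval that includes the length share of 8.26%. The MEF intervals of chromosomes 7, 8 and 15 also include their length shares, and those of chromosomes 12 and 17 lie above theirs. The foetal liver intervals of chromosomes 7, 8, 12, 15 and 17 include their length shares, and that of chromosome 9 (0 to 6.375%) lies below.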

How the results depend on the processing

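Of 83 recomputed values, 64 stayed inside the 95% interval of the main value and 19 moved outside it. The MEF ratio to length was 1.58 in the first 5 Mb and 0.880 in the first 20 Mb, where it turned to the foetal liver side of 1. Some ratios stayed within the main interval but had an interval of their own that includes 1. In MEFs these were the ratios without the first 100 kb (1.04) and in the wider 50% (1.19). They also included those with 10 kb (1.08) and 100 kb joining (1.14). In foetal liver they were the ratios with 10 kb (0.812) and 100 kb joining (0.808) and in the first 5 Mb (0.951, 0.670 to 1.31). The same held for the ratios given above with single chromosomes left out. The foetal liver ratio was 0.550 without chromosome 19. The share of MEF peaks in the first 1 Mb was 13.2% with peaks within 100 kb counted once, 15.7% with 10 kb and 16.9% without chromosome 9. Neighbour shares in MEFs were 14.7% among the wider 50% of peaks, 14.53% without chromosome 9, 11.7% without the first 100 kb, 11.6% within 1 kb and 41.8% within 100 kb. In foetal liver they were 0% without chromosome 19, 0% within 1 kb and 39.0% within 100 kb. Median widths were 1688 and 1111 bp among the wider 50%, and 1254 and 801 bp with peaks within 100 kb counted once (MEF, foetal liver), as those settings remove narrow peaks or lengthen them. The shared portion of foetal liver peaks was 21.7% among the wider 50%. The neighbour shares within 1 kb and 100 kb use another distance than the main value. The foetal liver value of 0% without chromosome 19 follows from all 7 foetal liver peaks with a neighbour within 10 kb lying on it. The 21.7% counts the same 5 shared foetal liver peaks over 23 wide ones in place of 59. Leaving out chromosome 9 took out its 15 MEF peaks at the gap, all in the first 1 Mb and all with a neighbour within 10 kb. For the remaining moved values the cause was not tested. Leaving out single chromosomes other than 9, 17, 19 and X, the first 100 kb, and 10 kb joining were chosen after seeing the data. Neighbour shares have no value once peaks within 100 kb are joined. No paired analysis was possible because each group has 1 library. With no read counts, weak binding cannot be told from none.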
